A study of Mus musculus with 6 samples.

Results

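The genes described here are 32 listed genes of cholesterol synthesis, its control by sterol-regulated transcription factors, sterol transport and export, and fatty acid synthesis, chosen by gene symbol. Of these, 31 had a row under the listed symbol among the 23361 genes of the deposited table, and all 31 were among the 12533 genes kept for testing, those averaging 1 FPKM or more (a read density: fragments per kilobase of gene, scaled by library size). Msmo1 had no row under that symbol. RefSeq lists Sc4mol as an older symbol of Msmo1, and the Sc4mol row is given apart and is not in the counts. The levels come from RNA sequencing of whole hippocampus from 3 mice homozygous for the Tet1Δe4 allele, which lacks exon 4 of Tet1, and 3 Tet1+/+ mice. They are called Tet1-deficient and wild-type. Every mouse of both genotypes received an electroconvulsive shock at the ears (18 mA, 100 Hz, pulses of 0.2 ms, 1.15 seconds) that evokes a tonic-clonic seizure, and hippocampi were taken 1.5 to 2 hours later. The TET1 protein oxidises methylated cytosine in DNA. No unshocked mice were analysed here, and the labels give no age or strain. The design text counts 3 mice of each genotype, so each library is taken as 1 mouse.

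Cholesterol in the brain is made locally, because lipoproteins of the blood do not cross the blood-brain barrier. Acetyl-CoA is built into mevalonate and isoprenoids, these are joined to squalene, and squalene is closed to a sterol ring that is trimmed to cholesterol. The transcription factors encoded by Srebf1 and Srebf2 are held in the endoplasmic reticulum while sterol is plentiful and switch on the pathway's genes when it falls. Surplus sterol is exported by ABC transporters under liver X receptors, or hydroxylated in neurons by CYP46A1, a main route by which cholesterol leaves the brain. Glia make much of the sterol and fatty acid that membranes and myelin need.

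The 6 libraries were not alike, in a way that cuts across genotype. On the first principal component, which held 53.3% of the variance, Tet1-deficient replicate 1 and wild-type replicate 1 stood apart from the other 4 libraries (scores of -27.9 and -26.7, against 10.5 to 15.5). Wild-type replicate 1 was also the only library with an f in its title code, the others carrying an m. It had 63.5 FPKM of Xist, the RNA that coats the inactive X chromosome of females, against 0.0389 to 0.202 FPKM in the other libraries. The Y-linked Ddx3y was at 0.0381 FPKM in wild-type replicate 1 and at 16.7 to 35.2 FPKM elsewhere. All 3 Tet1-deficient libraries lacked this female pattern, so sex and wild-type replicate 1 cannot be told apart. Tet1 itself measured 0.740, 0.685 and 0.638 FPKM in Tet1-deficient hippocampus, against 0.977, 0.718 and 0.897 FPKM in wild-type hippocampus, and a value over the whole gene does not check the loss of a single exon. The 10 neuron markers listed summed to 4569 to 4657 FPKM in Tet1-deficient and 4157 to 4388 FPKM in wild-type libraries. No marker was at 0. The log2 difference of FPKM + 1, Tet1-deficient minus wild-type, was positive for 6 of these markers and negative for 4 (median 0.02). The gap between the sums was thus not shared by every marker. The groups did not overlap for 2 markers, 1 had an unadjusted limma p under 0.05, and 0 had an adjusted p under 0.05.

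Promoter sequences are shown for 5 genes because their levels moved together across libraries or because they control the others. RefSeq (GRCm38.p6, the build of mm10) gave windows from 250 bases before to 50 bases after the transcript start for 24 of the 32 genes. Fdps, Fdft1, Sqle, Stard4, Npc1, Abcg1, Scd1 and Scd2 had none. Windows were searched on both strands for the sterol regulatory element TCACNCCAC and the E-box CACGTG, both bound by SREBP proteins, the CCAAT box CCAAT, bound by NF-Y, and the GC box GGGCGG, bound by Sp1. Capitals mark the sterol regulatory element, the E-box and the CCAAT box on either strand, and these did not overlap each other in the 5 windows shown. Each sequence is written 5′ to 3′ on the gene's strand, the minus strand for Hsd17b7 and the plus strand for the others.
Hmgcs1, chr13:119690101-119690400: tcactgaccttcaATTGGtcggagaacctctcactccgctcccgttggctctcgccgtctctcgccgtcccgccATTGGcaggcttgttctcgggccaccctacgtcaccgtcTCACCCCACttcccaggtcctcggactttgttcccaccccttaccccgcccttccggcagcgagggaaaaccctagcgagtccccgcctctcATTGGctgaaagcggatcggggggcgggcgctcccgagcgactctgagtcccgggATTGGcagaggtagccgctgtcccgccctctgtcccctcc
Idi1, chr13:8885356-8885655: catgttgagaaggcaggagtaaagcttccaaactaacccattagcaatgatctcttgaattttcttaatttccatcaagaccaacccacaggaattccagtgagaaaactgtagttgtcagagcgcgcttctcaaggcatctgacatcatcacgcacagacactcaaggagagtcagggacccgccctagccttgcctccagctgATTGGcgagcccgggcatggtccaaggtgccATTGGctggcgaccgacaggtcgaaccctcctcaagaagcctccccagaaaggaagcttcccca
Hsd17b7, chr1:169969156-169969455: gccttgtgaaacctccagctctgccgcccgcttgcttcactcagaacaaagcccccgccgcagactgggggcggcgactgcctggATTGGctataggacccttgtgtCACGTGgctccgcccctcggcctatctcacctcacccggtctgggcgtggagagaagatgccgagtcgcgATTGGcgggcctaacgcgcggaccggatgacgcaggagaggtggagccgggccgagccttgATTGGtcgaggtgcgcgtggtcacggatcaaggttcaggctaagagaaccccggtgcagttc
Insig1, chr5:28071162-28071461: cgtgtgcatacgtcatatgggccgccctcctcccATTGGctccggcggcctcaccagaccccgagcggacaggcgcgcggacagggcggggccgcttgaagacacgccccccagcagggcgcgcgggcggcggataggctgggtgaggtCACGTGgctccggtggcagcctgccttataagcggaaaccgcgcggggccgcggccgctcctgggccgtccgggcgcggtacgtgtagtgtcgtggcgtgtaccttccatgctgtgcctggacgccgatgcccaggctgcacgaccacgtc
Srebf2, chr15:82147019-82147318: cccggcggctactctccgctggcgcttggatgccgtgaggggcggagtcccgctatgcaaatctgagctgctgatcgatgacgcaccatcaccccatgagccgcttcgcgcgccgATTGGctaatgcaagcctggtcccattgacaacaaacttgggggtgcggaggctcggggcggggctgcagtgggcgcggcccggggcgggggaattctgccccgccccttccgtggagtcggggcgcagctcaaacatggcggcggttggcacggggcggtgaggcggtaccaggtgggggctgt

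The CCAAT box was the commonest of the capitalised motifs in these windows. It occurred in 20 of the 24 genes of the pathway with a window (83.3%) and in 41.1% of all 27025 genes with one. The GC box occurred in 21 of 24 (87.5%), against 38.2% of all genes. The E-box occurred in 6 of 24 (25%), in Hsd17b7, Sc5d, Dhcr7, Scap, Insig1 and Abca1, against 8.09% of all genes. The sterol regulatory element letters occurred in 1 of 24, Hmgcs1, where they begin at -137 from the transcript start, and in 1.44% of all genes. The shares over all genes took every gene with a window, with no limit to protein-coding or expressed genes. All 32 listed genes are protein-coding and 31 passed the filter on level, so the shares compare unlike sets. These are matches of letters within short windows and no binding was measured.

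No gene of the pathway passed the threshold for a difference between genotypes. Of the 31 genes, 0 had a limma adjusted p under 0.05, where 0.0319% of all tested genes did, and 0 had an unadjusted p under 0.05, where 1.36% did (0.918% with lower values in Tet1-deficient libraries). The groups did not overlap for 2 of 31 genes, Npc1 and Abcg1 (6.45%), against 4.13% of all tested genes. All log2 differences here are of FPKM + 1, Tet1-deficient minus wild-type, which understates changes near 1 FPKM. They ran from -0.21 (Npc1) to 0.12 (Idi1), with a median of -0.02, beside 0.01 over all tested genes. The 95% confidence intervals of the 31 differences had a median half-width of 0.30 log2 units, the same to 2 decimals as over all tested genes, and the narrowest was 0.19 (Acaca). These widths are for single genes, before adjustment. In whole tissue, fewer cells of a type and less RNA per cell cannot be told apart. Of the 31 genes 21 had negative differences (67.7%, against 47.1% of all tested genes). In a fit without wild-type replicate 1, however, the difference was above 0 for 18 of 31 genes (46.3% of all tested genes), with a median of 0.02. With library weights the difference was above 0 for 17 of 31 genes, and the share over all tested genes in that fit was not computed.

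**Figure D1:**
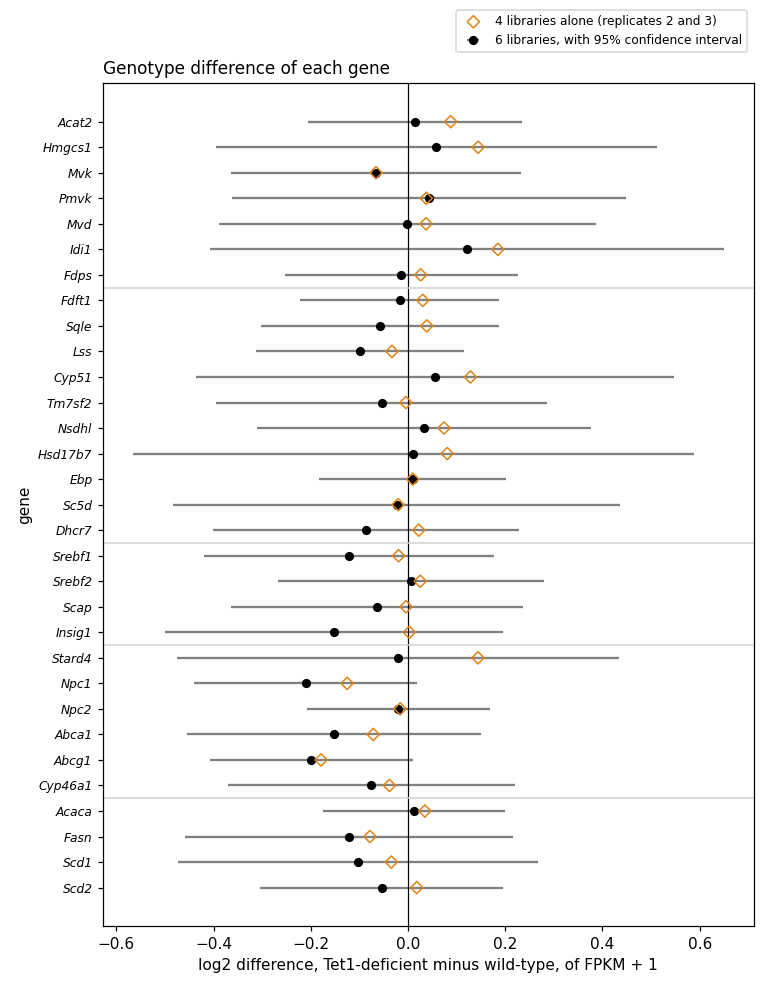
Log2 difference of FPKM + 1, Tet1-deficient minus wild-type (x axis), for the 31 genes in role order (y axis, grey lines between roles). Black points and bars are the fit to 6 libraries with its 95% confidence interval, and open diamonds the fit to the 4 libraries that lay together on the first principal component; every interval crosses 0, and Npc1 and Abcg1 lie farthest to the left.

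No gene of the mevalonate pathway passed the test, and Hmgcs1 and Idi1 varied most among its libraries. Hmgcs1, whose product condenses acetyl-CoA and acetoacetyl-CoA ahead of mevalonate, measured 165, 128 and 133 FPKM in Tet1-deficient hippocampus, against 179, 121 and 115 FPKM in wild-type hippocampus. Idi1, which interconverts the isoprenoid building blocks, measured 36.4, 25.1 and 26.7 FPKM in Tet1-deficient and 36.6, 22.8 and 22.6 FPKM in wild-type libraries. In both genes replicate 1 of each genotype was far above the others, and the groups overlapped. The log2 difference was 0.06 for Hmgcs1 (95% interval -0.40 to 0.51) and 0.12 for Idi1 (-0.41 to 0.65). In the 4 other libraries alone, Tet1-deficient values of both genes lay above wild-type values, with log2 differences of 0.14 and 0.18 and unadjusted limma p of 0.0414 and 0.0194. These 2 genes were the only ones of 31 under 0.05 in that fit (6.45%), and their adjusted p was 0.999. Of all tested genes 3.86% were under 0.05 in either direction. The share with lower Tet1-deficient values, the opposite direction to these genes, was 2.11%.

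Mvk, which phosphorylates mevalonate, went the other way across libraries. It measured 9.87, 11.5 and 12.1 FPKM in Tet1-deficient and 10.4, 11.3 and 13.5 FPKM in wild-type libraries, with replicate 1 lowest in each genotype (log2 difference -0.07). Pmvk and Mvd, which act next on phosphomevalonate and its diphosphate, had the same order. Pmvk ran from 21.4 to 29.2 FPKM in Tet1-deficient and 20.5 to 28.6 FPKM in wild-type hippocampus, and Mvd from 11.3 to 16.4 and 11.97 to 16.0 FPKM. Acat2, a thiolase that makes acetoacetyl-CoA, and Fdps, which makes farnesyl diphosphate, varied little, by 1.16 and 1.17 times between their lowest and highest libraries. Over the 7 genes 4 differences were above 0 and 3 below, with a median of 0.01.

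From squalene to cholesterol no gene passed the test either, and Sqle, Dhcr7 and Lss were highest in wild-type replicate 1. Sqle, the rate-limiting epoxidase of squalene, measured 28.9, 29.0 and 30.0 FPKM in Tet1-deficient hippocampus, against 34.7, 29.1 and 28.3 FPKM in wild-type hippocampus. Dhcr7, the reductase of the last step, measured 15.6, 13.97 and 15.8 FPKM in Tet1-deficient and 19.5, 14.6 and 14.7 FPKM in wild-type libraries. Lss, the cyclase that forms the sterol ring, measured 8.31, 8.27 and 8.67 FPKM in Tet1-deficient and 9.90, 8.87 and 8.51 FPKM in wild-type libraries. In all 3 genes wild-type replicate 1 was the highest library and the remaining 5 lay close together. Their log2 differences were -0.06, -0.09 and -0.10, with unadjusted limma p of 0.588, 0.536 and 0.313. Without wild-type replicate 1 the differences of Sqle and Dhcr7 turned to 0.03 and 0.04.

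Other genes of these steps were high in replicate 1 of both genotypes. Hsd17b7, a ketoreductase of sterol demethylation, had the widest range of the 31 genes, 1.94 times from lowest to highest, and is described for that reason. It measured 8.98, 6.02 and 5.98 FPKM in Tet1-deficient and 9.91, 5.10 and 6.18 FPKM in wild-type libraries. Cyp51, the lanosterol demethylase, ran from 19.3 to 27.8 FPKM in Tet1-deficient and 18.1 to 29.7 FPKM in wild-type hippocampus, and Sc5d, a desaturase, from 32.2 to 44.8 and 29.6 to 45.8 FPKM. Tm7sf2, Nsdhl and Ebp, a reductase, a dehydrogenase and an isomerase of sterol trimming, also had their top pair of values in these libraries, while Fdft1, squalene synthase, averaged 27.2 ± 0.704 FPKM in Tet1-deficient and 27.6 ± 1.64 FPKM in wild-type hippocampus (SD, n = 3 each). The row named Sc4mol, the methyl sterol oxidase listed by RefSeq as Msmo1, measured 64.1, 40.1 and 43.0 FPKM in Tet1-deficient and 60.3, 37.5 and 38.1 FPKM in wild-type libraries (log2 difference 0.12). Of the 10 genes counted here 4 differences were above 0 and 6 below, with a median of -0.02.

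**Figure D2:**
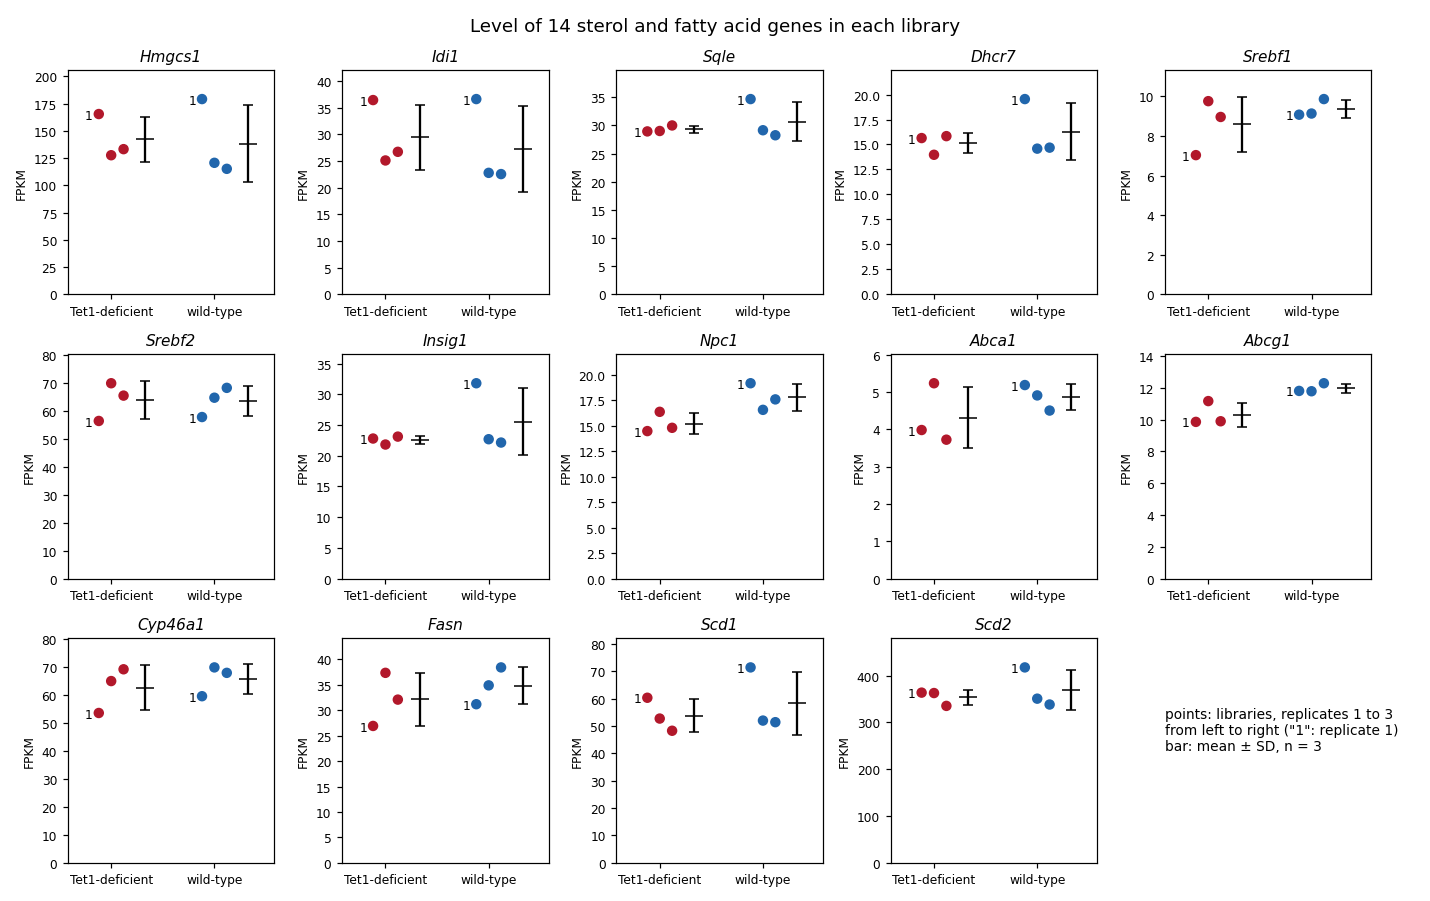
FPKM of 14 genes (y axes, from 0) in each library of Tet1-deficient (red) and wild-type (blue) hippocampus, with the mean ± SD of 3 libraries beside each group. Replicate 1 of both genotypes is high for Hmgcs1 and Idi1 and low for Srebf2 and Cyp46a1, wild-type replicate 1 alone is high for Insig1, Sqle and Dhcr7, and the points of Npc1 and Abcg1 do not overlap between genotypes.

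Among the genes of SREBP control, Insig1 stood out by a single library. Insig1 encodes the endoplasmic reticulum protein that retains the SREBP complex, and is itself an SREBP target. It measured 22.8, 21.8 and 23.1 FPKM in Tet1-deficient hippocampus, against 31.8, 22.7 and 22.1 FPKM in wild-type hippocampus. The other 5 libraries thus lay within 21.8 to 23.1 FPKM, and wild-type replicate 1 far above them. The log2 difference was -0.15 (95% interval -0.50 to 0.20), and without wild-type replicate 1 it was 0.01.

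The transcription factor genes themselves differed little by genotype. Srebf2, whose product governs sterol synthesis, measured 56.4, 69.9 and 65.5 FPKM in Tet1-deficient and 57.8, 64.8 and 68.3 FPKM in wild-type libraries, lowest in replicate 1 of each (log2 difference 0.01, 95% interval -0.27 to 0.28). Srebf1, which mainly drives fatty acid synthesis, measured 7.03, 9.76 and 8.96 FPKM in Tet1-deficient and 9.08, 9.14 and 9.86 FPKM in wild-type libraries. Only Tet1-deficient replicate 1 was low for Srebf1, and the log2 difference was -0.12 (unadjusted limma p 0.366). The difference of Srebf1 was 8.94e-06 without that library. Scap, the sterol-sensing escort of SREBP, averaged 25.3 ± 3.61 FPKM in Tet1-deficient and 26.3 ± 1.86 FPKM in wild-type hippocampus (SD, n = 3 each). Srebf2 transcripts were thus about as abundant per length as those of Cyp46a1, and above those of Srebf1 in every library.

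Sterol transport and export was the role with differences in a single direction: all 6 genes had a negative difference, with a median of -0.11. Of all tested genes 47.1% had a negative difference. Stard4 and Npc2 lay near 0, at -0.02 each (SE 0.19 and 0.079), and were at 0.16 and 0.00064 without wild-type replicate 1. Abcg1, a transporter that loads cholesterol onto lipoproteins, measured 9.86, 11.2 and 9.90 FPKM in Tet1-deficient hippocampus, against 11.8, 11.8 and 12.3 FPKM in wild-type hippocampus. Npc1, the late endosomal protein that releases cholesterol from endosomes, measured 14.5, 16.4 and 14.8 FPKM in Tet1-deficient and 19.2, 16.6 and 17.6 FPKM in wild-type libraries. For both genes every Tet1-deficient library lay below every wild-type library, by a narrow margin at the nearest pair. Tet1-deficient means were 86.2% of wild-type for Abcg1 and 85.6% for Npc1. The log2 differences were -0.20 (SE 0.088, unadjusted limma p 0.0595) and -0.21 (SE 0.097, p 0.0665), and the adjusted p was 1.00 for each.

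The share of all tested genes with non-overlapping groups and lower values in Tet1-deficient libraries was 2.21%. Abcg1 and Npc1 kept their sign in every fit tried, as did Lss, Abca1 and Fasn, whose groups overlapped. Where groups do not overlap, leaving out, reweighting or subsetting libraries cannot reverse the sign. For Abcg1 and Npc1 the signs in such fits were therefore fixed in advance and are no check. With the library split as a term, which removes the variance between the libraries that stood apart and the rest, their unadjusted limma p were 0.0136 and 0.0249, where 6.77% of all tested genes were under 0.05 and 2.85% were under it with lower values in Tet1-deficient libraries, and their adjusted p were 0.645 and 0.705. Within the pair that stood apart, Tet1-deficient replicate 1 was below wild-type replicate 1 by -0.24 log2 units for Abcg1 and -0.38 for Npc1. In the other 4 libraries the differences were -0.18 and -0.13. Genes on the opposite strand overlap the span of Npc1, among them Rmc1. Without a stated strand setting, reads from any bases their transcripts share cannot be told apart.

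Other fits gave few further genes. With library weights, which let noisy libraries count for less, Abcg1, Npc1, Abca1 and Idi1 had an unadjusted limma p under 0.05 (12.9% of the 31 genes, against 9.83% of all tested genes, 5.31% of them lower in Tet1-deficient libraries), and the smallest adjusted p was 0.2, for Abcg1. With the trends on GC content and length removed, Npc1 alone was under 0.05 (p 0.0322), against 2.25% of all tested genes and 1.3% with lower values in Tet1-deficient libraries. Without Tet1-deficient replicate 2, Abca1 and Abcg1 were, against 1.52% of all tested genes and 1.17% with lower Tet1-deficient values. After quantile normalization Abcg1 alone was, against 0.83% of all tested genes with lower Tet1-deficient values. None of the 31 genes passed the adjusted threshold in these fits. Of all tested genes 0.471% did with library weights, 0.0482% with the GC content and length trends removed, 0.0319% after quantile normalization, 0.0638% in the fit with a split term, and 0% without Tet1-deficient replicate 2.

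Abca1, the transporter that starts lipoprotein lipidation and like Abcg1 a liver X receptor target, had the lowest level of the 31 genes. It measured 3.98, 5.23 and 3.72 FPKM in Tet1-deficient and 5.18, 4.91 and 4.50 FPKM in wild-type libraries, overlapping through Tet1-deficient replicate 2 (log2 difference -0.15, unadjusted limma p 0.272). Cyp46a1, the neuronal cholesterol 24-hydroxylase, measured 53.4, 64.8 and 69.0 FPKM in Tet1-deficient and 59.4, 69.7 and 67.8 FPKM in wild-type libraries, lowest in replicate 1 of each (log2 difference -0.08). Stard4, a cytosolic sterol carrier, ran from 8.13 to 8.73 FPKM in Tet1-deficient libraries, inside the range of 6.19 to 11.4 FPKM in wild-type libraries. Npc2, the luminal partner of Npc1, was among the steadiest genes at 17.0 ± 0.363 FPKM in Tet1-deficient and 17.2 ± 0.449 FPKM in wild-type hippocampus (SD, n = 3 each).

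All tested markers of vessel and meningeal cells had negative differences too, where 47.1% of all tested genes did. None passed the adjusted threshold in limma, and 1 endothelial and mural and 0 meningeal fibroblast markers had an unadjusted p under 0.05. All 10 tested endothelial and mural markers had negative differences (median -0.26), and their summed levels were 30.5 to 59.7 FPKM in Tet1-deficient and 38.9 to 67.8 FPKM in wild-type libraries. All 7 tested meningeal fibroblast markers did so too (median -0.62), with list sums of 39.9 to 59.0 FPKM in Tet1-deficient and 40.9 to 101 FPKM in wild-type libraries. The median deviation of the endothelial and mural markers was -0.34, 0.33 and -0.44 in Tet1-deficient and 0.10, -0.22 and 0.59 in wild-type libraries, and that of the meningeal fibroblast markers -0.23, 0.04 and -0.60 in Tet1-deficient and 0.57, -0.56 and 0.93 in wild-type libraries. Replicate 2 of each genotype thus lay on the other side from the rest of its group. For Npc1 and Abcg1, replicate 2 was likewise the highest Tet1-deficient and the lowest wild-type library. For Abcg1 the wild-type margin was small, 11.78 FPKM against 11.80 FPKM in replicate 1. Abca1 was highest in replicate 2 among Tet1-deficient libraries but lowest in replicate 3 among wild-type libraries. Of 10 astrocyte markers 4 were negative (median 0.01), with sums of 1225 to 1398 and 1179 to 1360 FPKM in Tet1-deficient and wild-type libraries, and of 10 oligodendrocyte markers 7 were (median -0.08), with sums of 3120 to 4062 and 3420 to 3654 FPKM. Of 10 microglia markers 5 were negative (median 0.01), with sums of 203 to 219 and 206 to 218 FPKM. No marker of these lists was at 0 in any library, and the part of these cells in the values of Abcg1, Npc1 and Abca1 was not tested.

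The fatty acid genes included the most abundant transcript of the set and no called difference. Scd2, the main stearoyl-CoA desaturase of brain, measured 364, 363 and 335 FPKM in Tet1-deficient and 418, 351 and 338 FPKM in wild-type libraries. Scd1, its close relative, measured 60.3, 52.7 and 48.3 FPKM in Tet1-deficient and 71.4, 52.0 and 51.4 FPKM in wild-type libraries. Both were highest in wild-type replicate 1, with log2 differences of -0.05 and -0.10 that became 0.04 and 0.05 without that library. Fasn, the fatty acid synthase, measured 26.9, 37.4 and 32.1 FPKM in Tet1-deficient and 31.2, 34.9 and 38.4 FPKM in wild-type libraries, lowest in replicate 1 of each (log2 difference -0.12, unadjusted limma p 0.424). Acaca, which makes malonyl-CoA and is the committed step, had the narrowest range of the 31 genes, 11.7 to 12.4 FPKM in Tet1-deficient and 11.8 to 12.1 FPKM in wild-type hippocampus (log2 difference 0.01, 95% interval -0.18 to 0.20). The median over the 4 genes was -0.08.

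Much of the variation between libraries followed the base composition of the transcripts. Tet1-deficient replicate 1 and wild-type replicate 1 held the top pair of values for 11 of 31 genes (35.5%, against 28.5% of all tested genes), which were Hmgcs1, Idi1, Cyp51, Tm7sf2, Nsdhl, Hsd17b7, Ebp, Sc5d, Npc2, Scd1 and Scd2. They held the bottom pair for 7 (22.6%, against 35% of all tested genes), which were Mvk, Pmvk, Mvd, Srebf2, Scap, Cyp46a1 and Fasn. The longest transcripts of the first set had GC contents of 41.9 to 51.3% and those of the second 56.3 to 59.1%. All tested genes showed the same order: of the 3112 tested genes with the lowest GC content 69.5% had their top pair in these libraries, and of the 3112 with the highest GC content 1.29% did. Across the 31 genes, Spearman's rho between GC content and the deviation from the gene's mean was -0.77 in Tet1-deficient replicate 1 and -0.83 in wild-type replicate 1, and 0.63 to 0.73 in the other 4 libraries; over 12448 genes it was -0.71, -0.63 and 0.50 to 0.63. These are descriptions across genes of shared libraries. Deviations are taken from each gene's mean over the same libraries, so falls in some libraries force rises in others. The opposite signs are therefore not separate results.

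**Figure D3:**
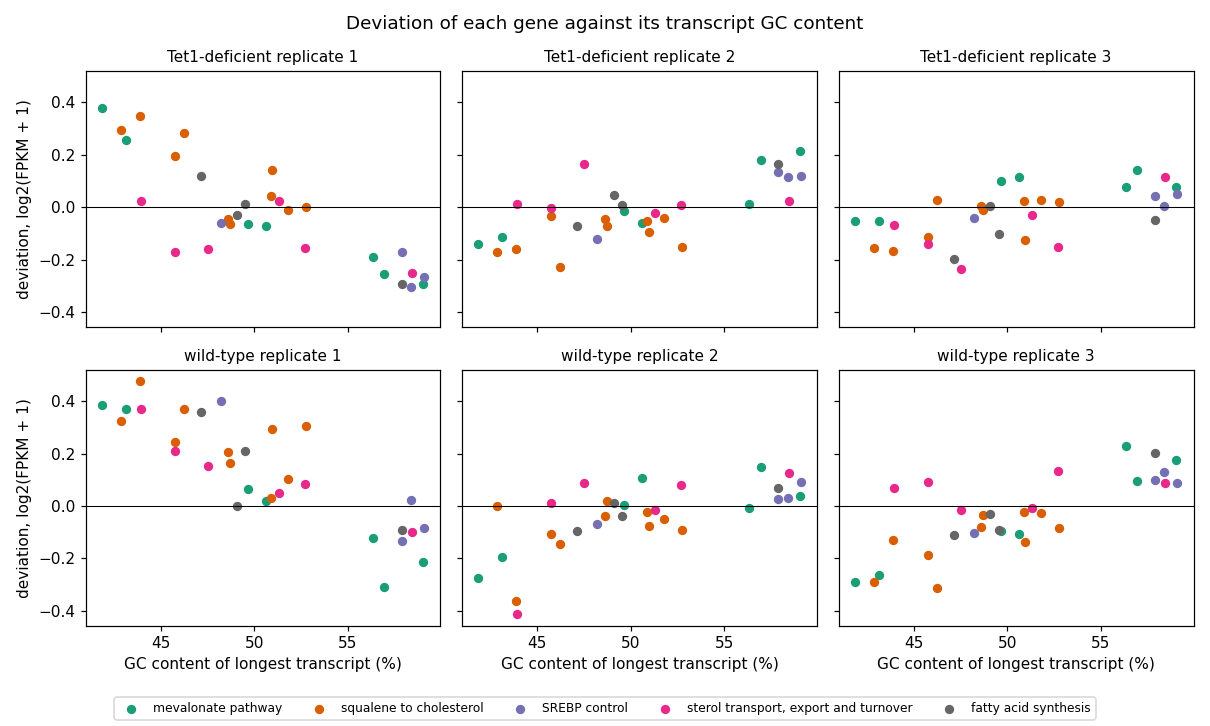
Deviation of log2(FPKM + 1) from the gene's mean over 6 libraries (y axis) against GC content of the longest transcript in percent (x axis), 1 panel per library and 1 point per gene, coloured by role. Points slope down in replicate 1 of both genotypes and up in the other 4 libraries.

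Wild-type replicate 1 also lay above Tet1-deficient replicate 1 for most of the genes. It was the highest of the 6 libraries for 17 of 31 genes (54.8%), against 16.6% of all tested genes. Tet1-deficient replicate 1 was the lowest for 10 (32.3%), against 27.1% of all tested genes. Tet1-deficient replicate 1 was below wild-type replicate 1 for 29 of 31 genes (93.5%), against 47.5% of all tested genes, with a median log2 difference of -0.13 beside 0.01. The 2 exceptions, singled out after their values were seen, were Pmvk and Ebp. The median deviation of the genes from squalene to cholesterol was 0.09 log2 units in Tet1-deficient replicate 1, 0.27 in wild-type replicate 1 and -0.11 to -0.0036 in the others. With each library's trend on GC content and length removed, wild-type replicate 1 was highest for 22 of 31 genes (71%), against 21.3% of all genes, and Tet1-deficient replicate 1 was below it for 26 (83.9%), against 46.5%. Each of these comparisons rests on 1 library of each kind and has no replicate check.

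**Figure D4:**
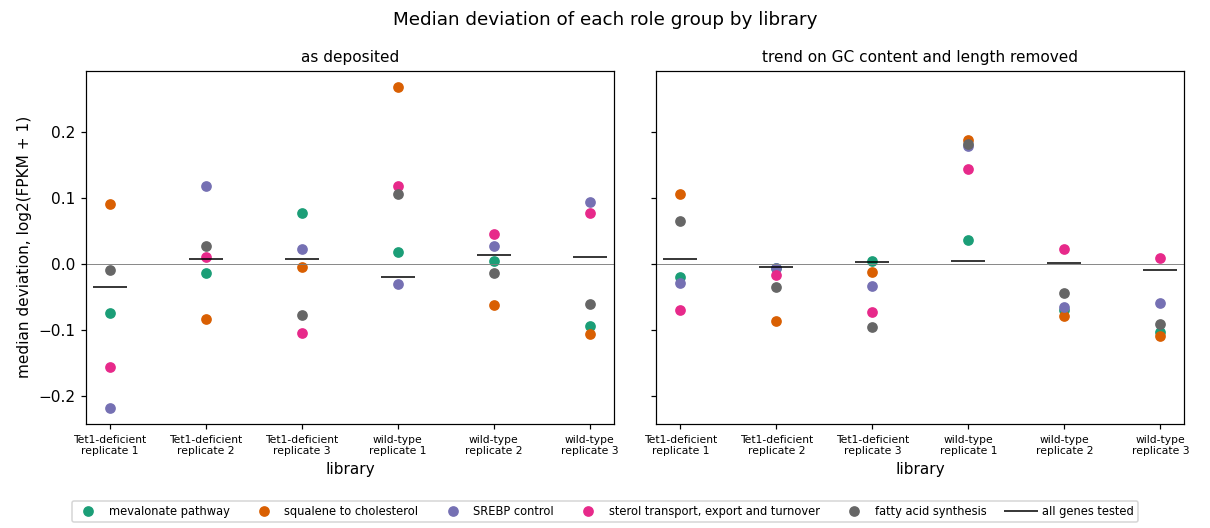
Median deviation of log2(FPKM + 1) of each role group (coloured points) and of all tested genes (black dashes) by library, as deposited (left) and after removal of each library's trend on GC content and length (right). After removal the role medians of wild-type replicate 1 lie between 0.04 and 0.19, and those of the other 5 libraries between -0.11 and 0.11.

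Of other gene lists, the immediate early genes and astrocyte markers had their highest median deviation in wild-type replicate 1. So did the further fatty acid genes described below, at 0.07, where 12 of 17 (70.6%) had Tet1-deficient replicate 1 below wild-type replicate 1. The further sterol genes, also described below, did not: they were at -0.02, and 13 of 23 (56.5%) had the same order. With the GC content and length trends removed, both lists were highest in wild-type replicate 1, at 0.14 and 0.10. The oligodendrocyte, meningeal fibroblast, and endothelial and mural markers were not highest there. Immediate early genes, which are induced rapidly by neuronal activity, had a median deviation of 0.22 in Tet1-deficient replicate 1, 0.50 in wild-type replicate 1 and -0.47 to 0.16 in the remaining libraries, and 11 of the 12 listed were lower in Tet1-deficient replicate 1 than in wild-type replicate 1. The median deviation of astrocyte markers was 0.10 in Tet1-deficient replicate 1, 0.13 in wild-type replicate 1 and -0.13 to 0.02 elsewhere. That of oligodendrocyte markers was -0.13 in Tet1-deficient replicate 1, 0.05 in wild-type replicate 1 and -0.01 to 0.14 elsewhere. Meningeal fibroblast markers were at -0.23 in Tet1-deficient replicate 1, 0.57 in wild-type replicate 1 and -0.60 to 0.93 elsewhere, highest in wild-type replicate 3. All 7 of 7 were lower in Tet1-deficient replicate 1 than in wild-type replicate 1 (median log2 difference -0.88). Endothelial and mural markers were at -0.34 in Tet1-deficient replicate 1, 0.10 in wild-type replicate 1 and -0.44 to 0.59 elsewhere, highest in wild-type replicate 3. All 10 of 10 were lower in Tet1-deficient replicate 1 than in wild-type replicate 1 (median log2 difference -0.45). The part of activity, sex, glia, vessels or meninges in the sterol values of wild-type replicate 1 was not tested.

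**Figure D5:**
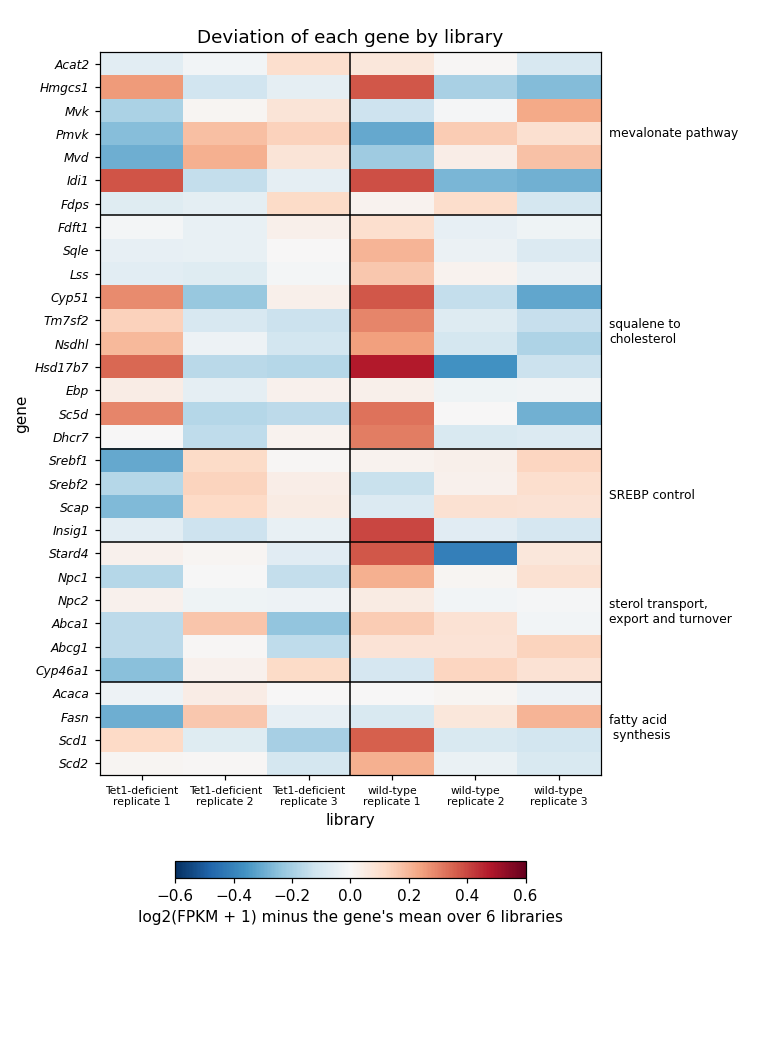
Heat map of the deviation of log2(FPKM + 1) from each gene's mean over 6 libraries (colour, log2 units), genes in rows by role and libraries in columns, Tet1-deficient left of the vertical line. The wild-type replicate 1 column is mostly red, with Hsd17b7 and Insig1 among the darkest cells, and the Tet1-deficient replicate 1 column is split into red and blue genes.

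In the 4 libraries other than these, the set showed no common direction. Differences were above 0 for 18 of 31 genes (58.1%), against 52% of all tested genes, and the median was 0.02. By role the medians were 0.04 for the mevalonate pathway, 0.03 from squalene to cholesterol, -0.0007 for SREBP control, -0.05 for transport and export and -0.01 for fatty acid synthesis. Of the 6 transport genes 5 remained below 0, and Stard4 was at 0.14.

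Further genes of sterol metabolism were read from a list of 26, of which 23 passed the filter. Of these 10 had positive and 13 negative differences, 0 passed the threshold in limma, 0 had an unadjusted p under 0.05, and the median was -0.01. Abca7, a lipid transporter, measured 2.81, 3.57 and 3.42 FPKM in Tet1-deficient and 2.28, 2.65 and 3.34 FPKM in wild-type libraries (log2 difference 0.19, unadjusted limma p 0.202). Vldlr, a lipoprotein receptor, measured 13.2, 13.3 and 12.04 FPKM in Tet1-deficient and 11.5, 11.9 and 12.7 FPKM in wild-type libraries (log2 difference 0.09, p 0.351). The groups overlapped for Abca7 and for Vldlr. Apoe, the main apolipoprotein of brain, measured 999, 1535 and 1502 FPKM in Tet1-deficient and 1015, 1390 and 1455 FPKM in wild-type libraries, low in replicate 1 of each (log2 difference 0.06).

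A second list held 21 further genes of fatty acid metabolism, of which 17 were tested. Of these 9 had positive and 8 negative differences, 0 passed the threshold in limma, 0 had an unadjusted p under 0.05, and the median was 0.0005. The smallest unadjusted limma p were those of Mcat, of mitochondrial fatty acid synthesis (log2 difference -0.13, p 0.218), Hsd17b12, of chain elongation (0.11, p 0.36), and Acly, which makes cytosolic acetyl-CoA from citrate (-0.11, p 0.461). Mcat measured 4.55, 4.53 and 5.13 FPKM in Tet1-deficient and 4.84, 5.53 and 5.43 FPKM in wild-type libraries, and Hsd17b12 62.95, 56.8 and 51.3 FPKM in Tet1-deficient and 57.1, 50.1 and 51.2 FPKM in wild-type libraries. Acly measured 35.1, 47.6 and 45.8 FPKM in Tet1-deficient and 40.6, 49.0 and 48.9 FPKM in wild-type libraries, lowest in replicate 1 of each genotype. Scd3 and Scd4, relatives of the desaturases above, stayed at or below 0.539 and 0.299 FPKM. Among the 31 genes, 0 had another gene whose transcript matched at 95% identity over 80% of its length. The spans of 10 are overlapped by a gene on the opposite strand, and reads from any bases that both transcripts share cannot be told apart here. The spans of Fdps, Tm7sf2, Srebf1, Srebf2, Abcg1, Acaca and Scd2 are overlapped by a gene on the same strand (Vps51 for Tm7sf2). No strand setting would separate reads from bases that such transcripts share. Only whole gene spans were compared, so overlap of exons was not tested. Among the same-strand genes are microRNAs, as for Srebf1, Srebf2 and Scd2.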

How the data were processed

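The table the authors deposited holds FPKM by gene and library. TopHat2 2.0.9, Cufflinks 2.1.1 and build mm10 are named, per the submitters' processing notes. Annotation, strand setting and filters were not given in the sources used here. Such values keep no read count, so depth is unknown and no counting interval is given.

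Genes averaging 1 FPKM or more (12533 of 23361) were fitted with limma 3.58.1 (R 4.3.3) on log2(FPKM + 1), genotype being the lone term and the prior variance following intensity. Tests were two-sided, with Benjamini-Hochberg adjustment over all genes and a threshold of 0.05. The fit was tested on simulated data with independent noise for each gene and library. Those data lack the shared differences between libraries seen here, so the test does not cover them. The members, gene lists and alternatives were chosen with earlier results of these data known. Printed with every library are the 2 members of each role with the smallest p, the extremes of level and 10 preset genes, with 3 by p from each further list and 4 preset there; others were chosen after their values were seen. Some genes of the further lists are counted but not reported here by name. Transcript GC content and length come from the longest GENCODE M21 transcript (GRCm38, the build of mm10), found for 99.32% of tested genes. Copies were sought with BLAST 2.17.0.

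Alternatives were another pseudocount, no filter, 2 other scalings, no trend, library weights, a looser threshold and leaving out each library. Chosen only after seeing the data were a term for the library split, the 4 libraries alone, and removal of GC content and length trends (splines with 5 degrees of freedom).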

Additional observations from a re-analysis of the deposited data

How the results depend on the processing

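No paired analysis was possible because the replicate numbers are names in sample order and the title codes share a single number across genotypes. Read depth is unknown, so its limit on low genes is unknown too. The 31 genes had 0 adjusted limma calls in every fit run. Over all genes the 4 calls became 59 with library weights, 8 with a term for the split and 12 using 4 libraries, and 0 to 6 when a library was left out. Many small differences changed sign, and the cause was not tested. Under median-of-ratios scaling, the log2 difference became 0.0063 for Mvd. Under library weights, the log2 difference became 0.011 for Mvd, 0.055 for Fdps, 0.054 for Fdft1, 0.039 for Sqle, 0.072 for Dhcr7, 0.0089 for Insig1, 0.17 for Stard4. Under 4 libraries alone, the log2 difference became 0.037 for Mvd, 0.026 for Fdps, 0.030 for Fdft1, 0.039 for Sqle, 0.022 for Dhcr7, 0.0027 for Insig1, 0.14 for Stard4, 0.018 for Scd2. Under GC content and length removed, the log2 difference became 0.0022 for Mvd, 0.010 for Fdps, 0.013 for Fdft1, -0.0089 for Hsd17b7, 0.0092 for Npc2. Under quantile normalization, the log2 difference became -0.021 for Srebf2. Leaving out each library in turn gave log2 differences of -0.032 to 0.052 for Acat2, -0.059 to 0.26 for Hmgcs1, -0.14 to 0.031 for Mvk, -0.10 to 0.18 for Pmvk, -0.11 to 0.14 for Mvd, -0.038 to 0.34 for Idi1, -0.074 to 0.037 for Fdps, -0.046 to 0.029 for Fdft1. Under the same omissions the range was -0.11 to 0.030 for Sqle, -0.086 to 0.26 for Cyp51, -0.14 to 0.079 for Tm7sf2, -0.056 to 0.16 for Nsdhl, -0.17 to 0.25 for Hsd17b7, -0.0087 to 0.039 for Ebp, -0.18 to 0.13 for Sc5d, -0.15 to 0.045 for Dhcr7. It was -0.21 to 8.94e-06 for Srebf1, -0.061 to 0.091 for Srebf2, -0.14 to 0.054 for Scap, -0.24 to 0.0096 for Insig1, -0.23 to 0.16 for Stard4, -0.036 to 0.00064 for Npc2, -0.15 to 0.031 for Cyp46a1, -0.0069 to 0.031 for Acaca. The remaining ranges were -0.19 to 0.050 for Scd1, -0.11 to 0.038 for Scd2, -0.11 to 0.26 for Apoe, -0.20 to 0.021 for Acly, -0.087 to 0.34 for Sc4mol. The median of the fatty acid genes ranged over -0.10 to 0.027 in these fits, the highest without wild-type replicate 1.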
